A study of Mus musculus with 30 samples.

Results

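The genes described here mark the first stages of the oligodendrocyte lineage in the mouse brain. They are 10 genes in all, 4 of precursor cells (Pdgfra, Cspg4, Ptprz1 and Vcan) and 6 of committed and premyelinating cells (Gpr17, Bcas1, Enpp6, Tcf7l2, Itpr2 and Fyn). They were picked by gene name from a table of 34871 genes, and all 10 were among the 23695 genes tested. The 30 brains came from mice aged 8 months: 10 wild type (WT, Tmem106b+/+), 10 with 1 intact copy (HET, Tmem106b+/-) and 10 with none (KO, Tmem106b-/-). In every genotype, cohort 1 gave 3 mice of each sex and cohort 2 gave 2 of each. RNA came from the cerebral hemispheres, so all cell types of that tissue contribute to each value. Tmem106b encodes a membrane protein of lysosomes and late endosomes. The sources used here do not name the strain, the part of the gene deleted or what the cohort number means.

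Oligodendrocyte precursors are dividing glial cells that persist in the adult brain. A precursor that commits to the lineage stops dividing, passes through a short premyelinating stage and then either dies or wraps axons with myelin. Precursor genes include growth factor receptors and surface proteoglycans, and several genes of the next stage peak before the abundant myelin proteins appear. Several of these genes are also used by other brain cells: Cspg4 by pericytes, Ptprz1 by astrocytes, Tcf7l2 by thalamic neurons and Fyn by neurons in general.

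Values are the deposited log2 RPKM, that is, reads scaled to gene length and library size, on a log2 scale after the authors' conditional quantile normalization. Library medians lay between 2.82 and 2.91, the lowest correlation between any pair of libraries was 0.971, and the read depth is unknown. Tmem106b itself followed the genotype labels, at 9.06 to 9.27 in WT, 8.54 to 8.62 in HET and 7.43 to 7.67 in KO brains. Changes are log2 differences from a linear model in limma with genotype, sex, cohort and RNA integrity number (RIN) as terms. They are given as ± standard error (SE). P values were adjusted over the 23695 genes (Benjamini-Hochberg), and a gene is called at an adjusted p under 0.05. Fewer cells of a type and less RNA per cell cannot be told apart in these bulk samples.

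Of the 10 genes, Enpp6 changed in KO brains, and it fell. Enpp6 encodes a choline-specific phosphodiesterase and is a marker of newly forming oligodendrocytes. It lies on chromosome 8 (46986925 to 47094895, plus strand, mm10). Its promoter window, from 250 bases before to 50 bases after the RefSeq start (GRCm38.p6), is shown because it is the gene that was called, and that of Pdgfra, the defining precursor receptor, is set beside it. Capitals mark the ACAATG match, a core SOX motif.

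Enpp6, chr8:46986637-46986936, plus strand: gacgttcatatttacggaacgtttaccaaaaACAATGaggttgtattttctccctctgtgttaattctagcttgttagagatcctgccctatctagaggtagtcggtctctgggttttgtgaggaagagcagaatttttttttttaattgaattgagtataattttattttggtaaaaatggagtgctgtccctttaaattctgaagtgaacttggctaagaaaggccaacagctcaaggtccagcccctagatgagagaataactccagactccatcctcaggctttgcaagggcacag
Pdgfra, chr5:75152001-75152300, plus strand: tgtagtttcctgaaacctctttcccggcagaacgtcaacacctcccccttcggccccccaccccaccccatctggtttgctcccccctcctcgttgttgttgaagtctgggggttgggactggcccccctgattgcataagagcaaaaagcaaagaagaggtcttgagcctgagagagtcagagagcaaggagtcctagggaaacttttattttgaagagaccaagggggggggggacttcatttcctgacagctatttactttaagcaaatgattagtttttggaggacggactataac

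The capitals begin at position -219 relative to the Enpp6 start. RefSeq windows were used for 8 of the genes, 9 windows in all, and 4 motifs were searched on both strands. ACAATG was found in 2 of the 9 windows, those of Enpp6 and Tcf7l2, and in 12.6% of 32851 promoter windows of the same length. The related SOX core ACAAAG was found in 1, the second window of Tcf7l2, against 18.7% of all windows. CAGCTG, an E-box, and CTGGCAC, a motif like that of Myrf, were found in none, against 16.3% and 5.01%. These letters are a description of the windows and nothing was drawn from them about binding.

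In WT brains the 10 genes spanned a wide range of levels per length. Bcas1 stood highest at 8.86 ± 0.13 (mean ± SD, n = 10), followed by Fyn at 8.45 ± 0.03, Ptprz1 at 8.36 ± 0.11 and Pdgfra at 6.68 ± 0.10. Gpr17 came next at 6.21 ± 0.23, then Tcf7l2 at 5.65 ± 0.14, Cspg4 at 5.40 ± 0.11, Vcan at 4.70 ± 0.08, Itpr2 at 4.57 ± 0.10 and Enpp6 at 4.30 ± 0.11. Neighbours in this order overlapped in range except at 3 steps: Bcas1 lay above Fyn, Ptprz1 above Pdgfra, and Cspg4 above Vcan in every WT brain. The stage of a gene did not set its place, since both groups held genes near the top and near the bottom. Gpr17 varied most between brains once genotype, sex, cohort and RIN were removed, with a residual SD of 0.19. Fyn varied least, with 0.03, lower than in all but 0.983% of the genes tested.

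**Figure D1:**
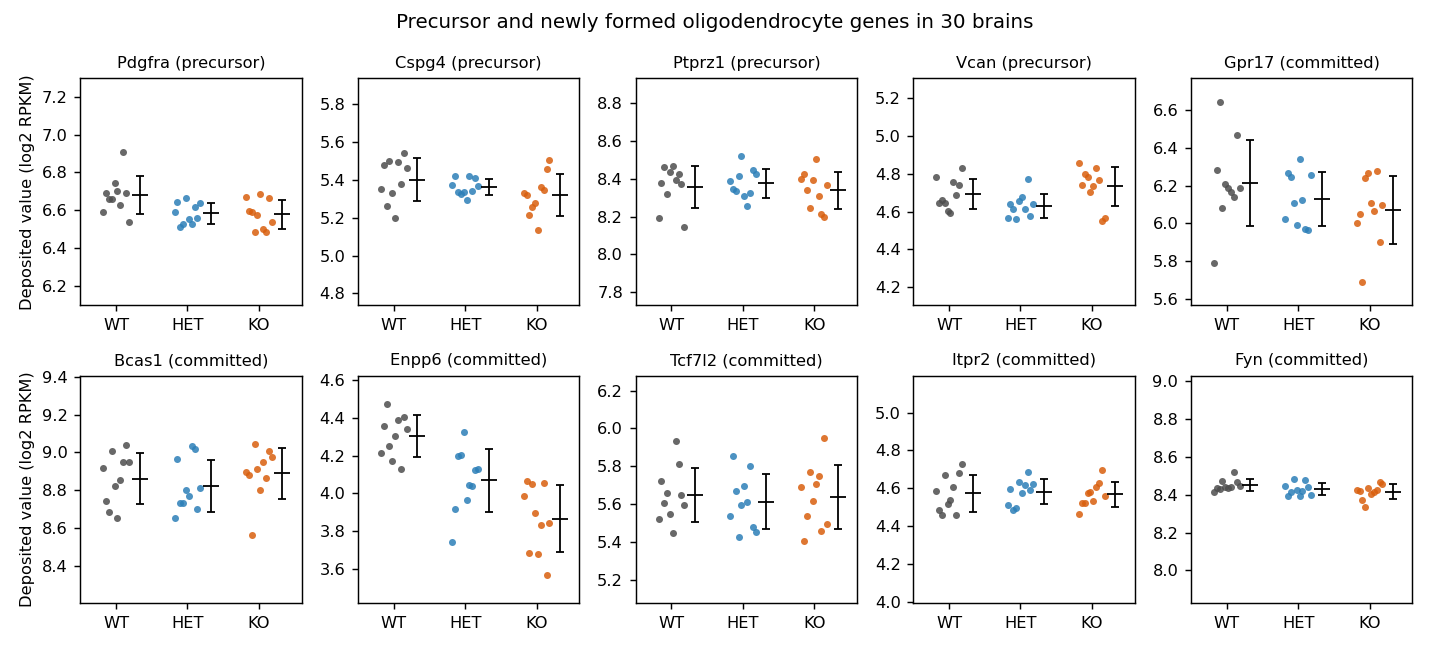
Deposited log2 RPKM of each of the 10 genes in every brain, by genotype, with a panel for each gene. Points are brains (n = 10 per genotype) and bars are the mean ± SD, and Enpp6 is the panel in which the KO points, 3.57 to 4.07, lie below all WT points, 4.13 to 4.47.

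Enpp6 ran from 4.13 through a median of 4.32 to 4.47 in WT, from 3.74 through 4.08 to 4.32 in HET, and from 3.57 through 3.87 to 4.07 in KO brains. No KO brain reached the lowest WT brain, while HET brains overlapped both other genotypes. The fall in KO against WT was -0.43 ± 0.07 (95% interval -0.56 to -0.29, adjusted p = 0.000512), which is -25.5% on the linear scale (-32.1% to -18.3%). By its p, Enpp6 stood at place 21 of the 23695 genes. Permuting the genotypes of the 20 brains gave p = 1e-05, the smallest that 100000 resamples can give. This test, like those of single genes below, used the deposited values without sex, cohort or RIN, and its p was not adjusted. Of all genes tested, 0.722% were called lower in KO brains and 1.00% in either direction, and 0.0675% had all KO brains below all WT brains. An antisense gene within Enpp6, 4930579M01Rik, was too low to be tested, with a mean of -1.28.

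The fall of Enpp6 was present in each cohort and each sex. Within cohort 1 it was -0.39 ± 0.09 (adjusted p = 0.0343), with WT at 4.13 to 4.47 and KO at 3.68 to 4.07. Within cohort 2 it was -0.49 ± 0.11, with WT at 4.22 to 4.40 and KO at 3.57 to 4.05. In both cohorts the KO range lay wholly below the WT range, as it did for 1.09% of all genes in cohort 1 and 1.09% in cohort 2. In cohort 2 alone, with 4 brains a genotype, the adjusted p was 0.530. The values were -0.49 in females and -0.37 in males, with adjusted p of 0.151 and 0.144. Of all genes, 2.03% were called within cohort 1, more than over all brains, and 0.0169% within cohort 2, with 0.0549% among females and 0.0633% among males. The difference between cohorts in the KO effect was -0.09 ± 0.14 (adjusted p = 0.903) and that between sexes 0.12 ± 0.13 (adjusted p = 0.900). The RIN term for Enpp6 was 0.23 ± 0.08 per unit and was not called (p = 0.0094, adjusted p = 0.306). RIN averaged 9.40 for WT, 9.23 for HET and 9.35 for KO brains, and the KO difference was -0.44 when RIN was left out of the model.

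With a single copy lost, the estimated Enpp6 differences were smaller and were not called. HET brains differed from WT by -0.20 ± 0.07 (95% interval -0.33 to -0.06, limma p = 0.0067, adjusted p = 0.751), and 9 of 10 lay below the WT mean. The raw difference, with no covariates, was -0.23 (permutation p = 0.0011). In the model the HET difference was -0.31 in females alone and -0.07 in males alone (adjusted p = 0.898 and 0.904). KO brains differed from HET by -0.23 ± 0.07 (adjusted p = 0.202, permutation p = 0.0177). These comparisons share brains with the first. Neither passed the adjustment over all genes, and few genes did: 0.00422% were called in HET against WT and 0.118% in KO against HET. Fitted as a slope over the number of deleted copies, the Enpp6 estimate was -0.21 ± 0.03 per copy (adjusted p = 0.000408). With 10 brains in each genotype, this slope is set almost wholly by the KO and WT brains. It therefore does not show a step at each copy. Enpp6 was the only one of the 10 genes called for the slope, against 1.02% of all genes. By limma none of the 10 was called in HET against WT, where 2 of 10 had an unadjusted p under 0.05 against 6.32% of all genes. None was called in KO against HET, where 2 of 10 had one against 8.66%; the other of these 2 was Vcan (0.10 ± 0.04, p = 0.0188, adjusted p = 0.443).

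**Figure D2:**
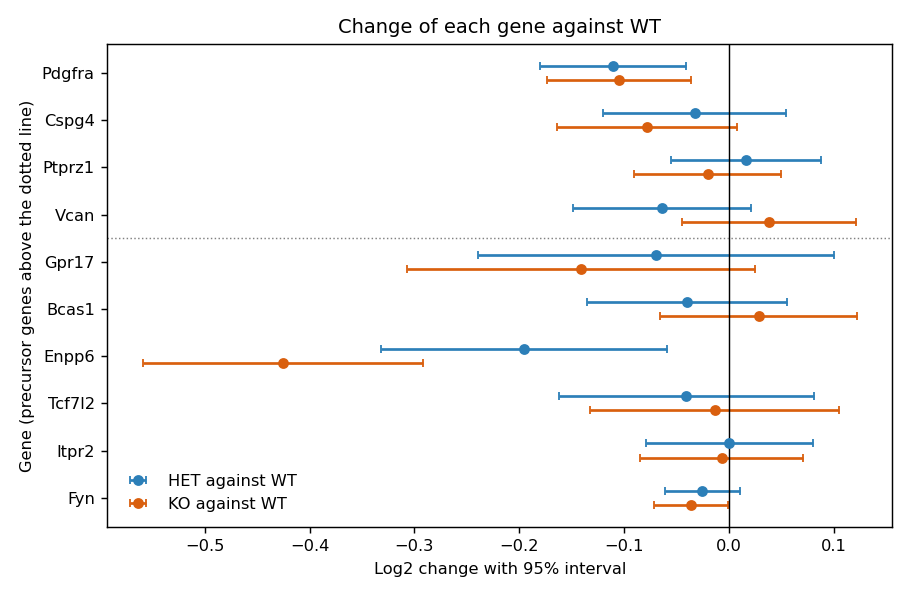
Log2 change of each of the 10 genes against WT in HET (blue) and KO (orange) brains, with 95% intervals from the model on the x axis. Enpp6 in KO lies at -0.43, apart from the other KO changes, which run from -0.14 to 0.04.

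Among the precursor genes, Pdgfra had the lowest p in KO brains. Pdgfra is the receptor for platelet-derived growth factor AA, the signal that keeps precursors dividing. It ran from 6.54 through a median of 6.67 to 6.91 in WT, from 6.51 through 6.57 to 6.67 in HET, and from 6.49 through 6.58 to 6.69 in KO brains. The ranges of the 3 genotypes overlapped, and the highest brains were WT. Pdgfra differed by -0.10 ± 0.03 in KO against WT (95% interval -0.17 to -0.04, p = 0.0039, adjusted p = 0.145, permutation p = 0.0165). In HET against WT it differed by -0.11 ± 0.03 (p = 0.0031, adjusted p = 0.671, permutation p = 0.0088). Neither was called. Below the WT mean lay 9 of 10 KO brains and 10 of 10 HET brains, and 0.616% of all genes had every HET brain below it.

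Cspg4, the NG2 proteoglycan of the precursor surface, ran from 5.20 through 5.42 to 5.54 in WT and from 5.13 through 5.33 to 5.51 in KO brains. The ranges overlapped, and the difference was -0.08 ± 0.04 (95% interval -0.16 to 0.01, adjusted p = 0.474). Ptprz1, a receptor phosphatase that binds pleiotrophin, ran from 8.14 through 8.39 to 8.47 in WT and from 8.20 through 8.35 to 8.51 in KO brains. The difference was -0.02 ± 0.03 (95% interval -0.09 to 0.05, adjusted p = 0.879). Ptprz1 lies 9.79 Mb from Tmem106b on chromosome 6, and Itpr2 133 Mb from it. Vcan encodes versican, a large proteoglycan of the matrix around cells. It ran from 4.59 through 4.68 to 4.83 in WT and from 4.55 through 4.75 to 4.86 in KO brains, a difference of 0.04 ± 0.04 (95% interval -0.04 to 0.12, adjusted p = 0.776). None of the 4 precursor genes was called in KO brains.

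Among the committed genes other than Enpp6, no call was made either. Gpr17, an orphan receptor that is shut off before final maturation, ran from 5.79 through 6.19 to 6.64 in WT and from 5.69 through 6.08 to 6.28 in KO brains. The difference was -0.14 ± 0.08 (95% interval -0.31 to 0.03, adjusted p = 0.524). Bcas1, a marker of early myelinating oligodendrocytes, ran from 8.65 through 8.88 to 9.04 in WT and from 8.56 through 8.91 to 9.04 in KO brains (difference 0.03 ± 0.05, adjusted p = 0.870). Fyn, a Src-family kinase that acts in early myelination, ran from 8.41 through 8.44 to 8.52 in WT and from 8.33 through 8.42 to 8.47 in KO brains. Its small spread gave a difference of -0.04 ± 0.02 an unadjusted p of 0.045 (95% interval -0.07 to -0.00, adjusted p = 0.40, permutation p = 0.0367).

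Tcf7l2, a transcription factor of the Wnt pathway in premyelinating cells, ran from 5.45 through 5.63 to 5.93 in WT and from 5.40 through 5.65 to 5.95 in KO brains (difference -0.01 ± 0.06, adjusted p = 0.959). Itpr2, a calcium channel of the endoplasmic reticulum opened by inositol trisphosphate, ran from 4.46 through 4.56 to 4.73 in WT and from 4.46 through 4.57 to 4.70 in KO brains (difference -0.01 ± 0.04, adjusted p = 0.970). In both, the WT and KO ranges overlapped nearly in full. In total 1 of the 10 genes was called in KO against WT, 8 of 10 had a negative difference against 46.7% of all genes, and 3 had an unadjusted p under 0.05 against 2846 of the 23695 genes tested. The median difference was -0.05 over the precursor genes, -0.02 over the committed genes and 0.01 over all genes tested. Of the genes that overlap a member, 9 were tested and none was called. They are Mir7025 (Pdgfra), Gm4117 (Vcan), Lims2 (Gpr17, -0.01, adjusted p = 0.974), Bcas1os2 and Bcas1os1 (Bcas1, the latter 0.06, adjusted p = 0.699), Gm15720 (Itpr2), and Gm6963, Gm16364 and Gm16365 (Fyn).

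Precursor genes were set against committed genes within each brain as the mean of the 4 minus the mean of the 6. WT brains averaged -0.06 ± 0.05, HET brains -0.04 ± 0.06 and KO brains 0.00 ± 0.09 (mean ± SD, n = 10 each). KO brains lay 0.06 above WT, with 8 of 10 above the WT mean, and the ranges overlapped. Leaving out Enpp6 turned the KO minus WT difference to -0.01, with 4 of 10 above the WT mean. The small KO difference in this contrast thus came from including Enpp6, which follows by arithmetic from its fall. A shift between the stages was not tested. The log2 ratio of Enpp6 to each of the other 9 genes was lower in KO than in WT, from -0.48 (to Vcan) to -0.29 (to Gpr17), as a description of the gene already singled out.

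**Figure D3:**
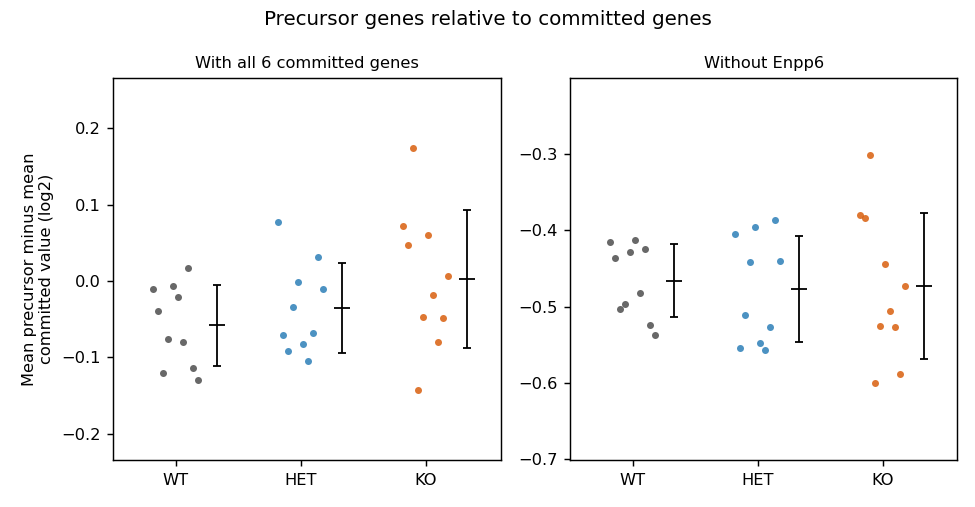
Mean log2 value of the 4 precursor genes minus that of the committed genes in each brain, by genotype, with all 6 committed genes (left) and without Enpp6 (right); points are brains and bars the mean ± SD. The KO minus WT difference is 0.06 on the left and -0.01 on the right, and the y axes of the panels differ in level but not in span.

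Neighbouring stages of the lineage were read from other lists. Of 14 further precursor genes tested, none was called in KO brains. Their median difference was -0.04, and 10 of 14 were negative, against 46.7% of all genes. The largest differences were those of C1ql1, a secreted synapse organiser (-0.20, adjusted p = 0.223), and Luzp2 (-0.17, adjusted p = 0.230). Of 17 further newly formed oligodendrocyte genes, none was called, with a median of -0.03 and 13 of 17 negative. The largest differences were those of the growth factor Bmp4 (0.17, adjusted p = 0.468) and the kinesin Kif19a (-0.13, adjusted p = 0.632). All 14 mature oligodendrocyte genes had a negative difference in the same brains, with a median of -0.22, and 12 were called lower. Among them are Mbp, Mag, Mog, Cnp, Mal, Cldn11, Ermn, Trf, Gjb1, Car2 and Opalin, of which Opalin, a surface protein of myelinating cells, had the largest fall (-0.49 ± 0.08, adjusted p = 0.000525). Earlier results of these brains had already shown the fall of mature genes, and it serves here as the level against which the earlier stages are read. Falls thus passed the test in 12 mature genes and in Enpp6, and in none of the other precursor and newly formed genes listed. A p that misses the threshold does not show that those genes were unaffected. A lean to negative differences was not particular to the lineage: 8 of 9 mural and 7 of 7 meningeal fibroblast genes were negative too. Of astrocyte and neuron genes, 4 of 8 and 2 of 6 were negative.

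Each gene was also measured relative to the mean of the 14 mature genes in the same brain, in a fit over all genes that was added with these results known. On that scale most of the transcriptome is higher in KO brains, 65.3% of genes called higher and 0.0971% lower, with a median of 0.24. Because so many genes passed, the adjustment is mild on this scale, and its calls cannot be compared with those of the main fit. Enpp6, already singled out for its fall, was lower (-0.19 ± 0.07, p = 0.0104, adjusted p = 0.0177). Its estimated fall was thus larger than the mean of the mature genes, but smaller than that of Opalin in the main fit. Gpr17, at 0.10 ± 0.08 (adjusted p = 0.331), did not pass in either direction. The other 8 were higher, from Pdgfra at 0.13 ± 0.04 (adjusted p = 0.00368) and Cspg4 at 0.16 ± 0.05 (adjusted p = 0.00404) to Vcan at 0.27. The median of all genes lay within the range of these 8. In HET brains none of the 10 was called on this scale, against 0.00844% of genes higher and 0.00422% lower.

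Of 14 ligands, partners and effectors tested, 1 was called in KO brains: Tnc, encoding tenascin C, a matrix protein that binds Ptprz1, fell (-0.39 ± 0.09, adjusted p = 0.0230). Pdgfa, the ligand of Pdgfra, differed by -0.06 (adjusted p = 0.528). Of 19 genes of the same families as the members, none was called and 15 were negative. The largest differences were those of Enpp2, autotaxin (-0.26, adjusted p = 0.349), and the kinase Lck (0.26, adjusted p = 0.363). Of 6 cell division genes tested none was called, with Mki67 at 0.23 (adjusted p = 0.625) and Cdk1 at 0.20 (adjusted p = 0.818). Among lists of other cell types that could carry the members, none of 8 astrocyte, 9 mural cell, 7 meningeal fibroblast, 8 thalamic neuron, 6 neuron, 5 microglia and 4 endothelial genes was called in KO against WT. The medians were 0.00, -0.07, -0.16, -0.08, 0.02, -0.04 and -0.13 in that order, and no gene of any list was called in HET brains. In the same order 4, 8, 7, 7, 2, 5 and 3 genes had a negative difference in KO brains, against 46.7% of all genes. The lowest adjusted p in these lists were those of Cldn5, a tight junction protein of endothelium (-0.44, adjusted p = 0.0567), and Pdgfrb, a receptor of mural cells (-0.18, adjusted p = 0.0583). Cldn5 was called lower for the slope per deleted copy (-0.22 ± 0.06, adjusted p = 0.0489), the only call of these lists in that fit, and its KO effect differed between cohorts (0.90 ± 0.16, adjusted p = 0.0338). The summed endothelial level ran from 9.85 to 9.97 in WT and from 9.24 to 9.53 in KO brains of cohort 1. In cohort 2 it ran from 9.59 to 9.87 in WT and from 9.63 to 10.01 in KO brains. The Enpp6 difference was -0.39 in cohort 1 and -0.49 in cohort 2, and the part of endothelial cells in it was not tested.

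Between cohorts 2 of the 10 genes differed. Bcas1 was higher in cohort 2 than in cohort 1 by 0.17 ± 0.04 (adjusted p = 0.0032), and Ptprz1 was lower (-0.12 ± 0.03, adjusted p = 0.0055). The other 8 did not pass, with Tcf7l2 the nearest (0.14 ± 0.05, adjusted p = 0.0510). These 2 of 10 stand beside 17.5% of all genes called between cohorts, so the share is near the background. Of the lists, 5 of 14 mature genes were higher in cohort 2, as were 6 of 9 mural and 3 of 4 endothelial genes, while 3 of 14 further precursor genes were lower. None of the 10 genes was called between the sexes by limma, against 0.333% of all genes, and 1 of 10 had an unadjusted p under 0.05, against 12.5%.

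The KO effect on Vcan differed between cohorts at an unadjusted p of 0.0057 (-0.22 ± 0.07, adjusted p = 0.377). In cohort 1, Vcan ran from 4.59 to 4.69 in WT and from 4.70 to 4.86 in KO brains, and in cohort 2 from 4.74 to 4.83 in WT and from 4.55 to 4.83 in KO brains. All KO brains of cohort 1 were thus above the WT brains, as for 0.950% of all genes, and those of cohort 2 were not. Markers of meningeal fibroblasts moved the opposite way: the KO effect was higher in cohort 2 for 7 of 7 genes, with a median difference of 0.69, and 1, the growth factor Igf2, was called (0.71 ± 0.13, adjusted p = 0.0348). Their summed level ran from 9.21 to 9.44 in WT and from 8.95 to 9.12 in KO brains of cohort 1, and from 9.04 to 9.29 and from 9.19 to 9.56 in cohort 2. The direction was not particular to fibroblasts. A negative difference was found for 1 of 9 mural, 1 of 4 endothelial and 6 of 19 same-family genes, against 50.6% of all genes. Of mature oligodendrocyte and neuron genes, 10 of 14 and 5 of 6 were negative. The part of these cells in the values of Vcan was not tested. The KO effect on Cspg4 differed between sexes at an unadjusted p of 0.0015 (-0.26 ± 0.07, adjusted p = 0.455). In males Cspg4 ran from 5.38 to 5.50 in WT and from 5.13 to 5.36 in KO brains. The ranges of the males did not overlap, as for 0.768% of all genes, and the KO minus WT difference was 0.05 in females and -0.21 in males. For Fyn the difference between sexes had p = 0.0050 (adjusted p = 0.538), with 0.01 in females and -0.09 in males. Vascular markers had differences of the same sign, negative for 8 of 9 mural genes (median -0.13) and 4 of 4 endothelial genes (median -0.15), with none called. So did 6 of 7 meningeal fibroblast, 5 of 6 neuron and 11 of 14 ligand and partner genes, against 50.8% of all genes. Of astrocyte, microglia and mature oligodendrocyte genes, 2 of 8, 1 of 5 and 2 of 14 were negative. The summed mural level of males ran from 10.28 to 10.49 in WT and from 10.12 to 10.44 in KO brains, and that of females from 10.22 to 10.40 and from 10.10 to 10.46. The summed endothelial level ran from 9.70 to 9.90 in WT and from 9.24 to 9.89 in KO males, and from 9.59 to 9.97 and from 9.40 to 10.01 in females. The part of these cells in the values of Cspg4 and Fyn was not tested. By limma none of the 10 was called for either interaction, against 0.0338% of all genes by cohort and 0% by sex. An unadjusted p under 0.05 was found for 1 of 10 by cohort, against 8.53% of all genes, and for 2 of 10 by sex, against 7.10%.

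Residuals after removal of genotype, sex, cohort and RIN were correlated over the 30 brains for the 45 pairs of genes, and no pair had an adjusted p under 0.05. With only genotype means removed, 4 pairs had one. The median Pearson r was 0.15 over the 15 pairs of committed genes, -0.15 over the 6 pairs of precursor genes and 0.05 over the 24 pairs across the stages. The highest was that of Pdgfra and Tcf7l2 (r = 0.560, permutation p = 0.0011, adjusted p = 0.051; Spearman rho = 0.453, permutation p = 0.012, adjusted p = 0.145). It was 0.458 without the 2 brains farthest from the median, and 0.430 and 0.738 within cohorts 1 and 2.

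Of 130 correlations of the 10 genes with 13 lists, 7 had an adjusted p under 0.05. Tcf7l2 rose and fell with the thalamic neuron list (r = 0.734, permutation p = 1e-05, adjusted p = 0.0013; rho = 0.692, permutation p = 3e-05, adjusted p = 0.0013). The value was 0.647 without the 2 farthest brains and 0.713 and 0.764 within the cohorts. Vcan ran opposite to the meningeal fibroblast list (r = -0.715, permutation p = 2e-05, adjusted p = 0.0013; rho = -0.702, permutation p = 2e-05, adjusted p = 0.0013), at -0.667 without the 2 farthest brains and -0.719 and -0.712 within the cohorts. The summed level of the 8 thalamic neuron genes ran from 9.62 to 9.79 in WT, 9.64 to 9.79 in HET and 9.60 to 9.79 in KO brains, on the log2 scale. That of the 7 meningeal fibroblast genes ran from 9.04 to 9.44 in WT, 8.99 to 9.36 in HET and 8.95 to 9.56 in KO brains. The genotypes overlapped in both, the lowest mean of a listed gene was 3.78 and 2.54, and the part of these cells in the values of Tcf7l2 and Vcan was not tested. The residuals keep any difference in the KO effect between cohorts, such as that of Vcan and the fibroblast genes. Within a cohort that difference remains between the genotypes, so the r of Vcan within the cohorts still holds it.

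Ptprz1 followed the further precursor genes (r = 0.661, permutation p = 5e-05, adjusted p = 0.0022; rho = 0.717, permutation p = 1e-05, adjusted p = 0.0013), at 0.705 without the 2 farthest brains and 0.599 and 0.822 within the cohorts. Bcas1 followed the mature genes (r = 0.611, permutation p = 0.00038, adjusted p = 0.0119; rho = 0.551, permutation p = 0.0019, adjusted p = 0.0416), at 0.518 without the 2 farthest brains and 0.629 and 0.618 within the cohorts. Ptprz1 also had r = 0.450 with the astrocyte list (permutation p = 0.0122, adjusted p = 0.133). Which cells carry the correlations of Ptprz1 and Bcas1 was not tested. Fyn followed the mural list (r = 0.595, permutation p = 0.00049, adjusted p = 0.0119; rho = 0.583, permutation p = 0.00093, adjusted p = 0.0302), at 0.545 without the 2 farthest brains and 0.542 and 0.685 within the cohorts. Gpr17 followed the microglia list (r = 0.595, permutation p = 0.00055, adjusted p = 0.0119; rho = 0.523, permutation p = 0.0032, adjusted p = 0.0602), at 0.584 without the 2 farthest brains and 0.563 and 0.634 within the cohorts. Cspg4 followed the list of ligands and partners (r = 0.544, permutation p = 0.0018, adjusted p = 0.0334; rho = 0.565, permutation p = 0.0013, adjusted p = 0.0341), at 0.451 without the 2 farthest brains and 0.508 and 0.596 within the cohorts. Enpp6 passed with no list.

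**Figure D4:**
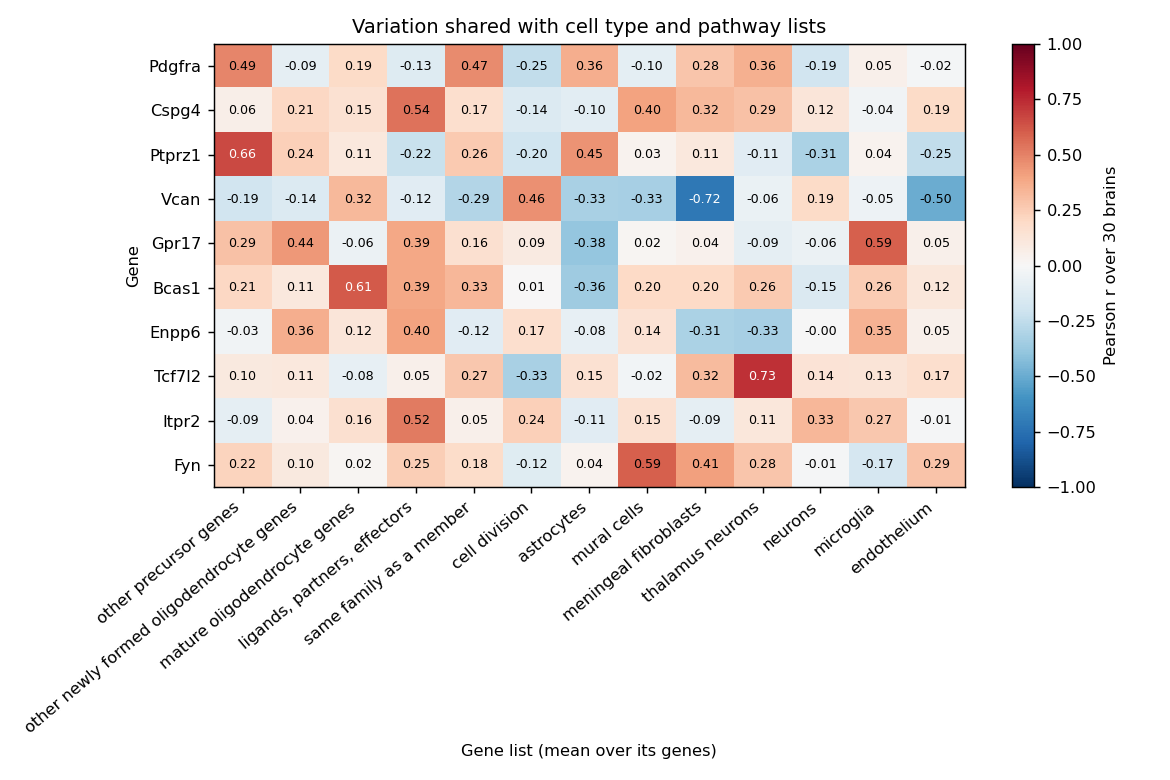
Pearson r, over the 30 brains, between the residual of each gene (rows) and the mean residual of each list (columns), on a colour scale. The strongest cells are Tcf7l2 with thalamic neurons, 0.734, and Vcan with meningeal fibroblasts, -0.715.

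**Figure D5:**
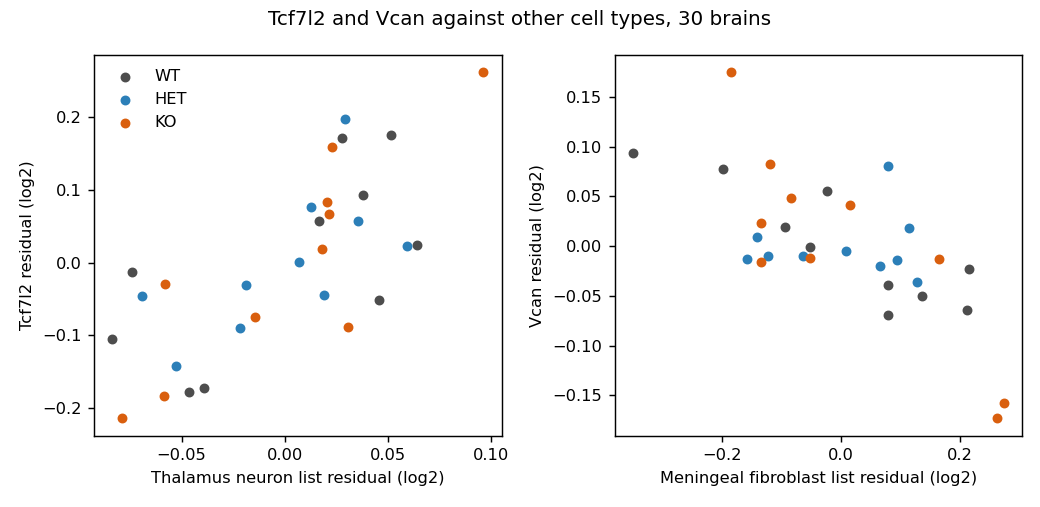
Residual log2 value of Tcf7l2 against the thalamic neuron list (left) and of Vcan against the meningeal fibroblast list (right), with a point for each of the 30 brains coloured by genotype. Genotype means were removed, so the 3 genotypes share a centre by construction. KO brains hold both the highest and the lowest Vcan residual, 0.18 and -0.17. Pearson r is 0.734 on the left and -0.715 on the right.

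For each gene the 3 genes most like it between brains were taken from all genes tested, by Pearson r of residuals over the 30 brains, as a description. Those of Enpp6 were Plekha3 (0.74), 6430562O15Rik (0.71) and Prpf18 (0.69), and those of Pdgfra were Sp1 (0.80), Slc1a2 (0.77) and Slc7a8 (0.76). Ptprz1 was nearest to Uhmk1 (0.86), Ube3a (0.84) and the precursor gene Luzp2 (0.83). Bcas1 was nearest to its own antisense gene Bcas1os1 (0.85), whose reads may be shared with it, then 4930506M07Rik (0.76) and Mpeg1 (0.74). Tcf7l2 was nearest to Lhx9 (0.77), Gm13612 (0.77) and Myl12a (0.75), and Gpr17 to Hexa (0.80), Ogfod1 (0.77) and Gpr89 (0.76). Cspg4 was nearest to Pnkd (0.71), Kcne1l (0.68) and Ctif (0.68), and Vcan to Rdh11 (0.70), Crlf3 (0.70) and Mtm1 (0.68). Itpr2 was nearest to Trnp1 (0.71), Lat (0.66) and Ppp1r14a (0.66), and Fyn to 2810459M11Rik (0.72), Mir7085 (0.71) and Map6d1 (0.70).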

How the data were processed

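Total RNA of the cerebral hemispheres of 30 mice was extracted in a single experiment and sequenced, per the labels' protocols. Alignment to mm10 used TopHat2 2.0.12 with Bowtie 1.1.0, per the submitters' processing notes. The counter, annotation release and strand setting were not given in the sources used here, so reads of antisense and overlapping genes cannot be told apart. The authors deposited log2 RPKM values after conditional quantile normalization, per the file headers and name, with a column of gene model lengths (other unit, bases). They carry no counts, so depth is unknown and precision was judged from the spread between mice.

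Genes with a mean above 0 were kept. limma 3.58.1 (R 4.3.3) was fitted to the 30 libraries with terms for genotype, sex, cohort and RIN, a two-sided eBayes test with trend, and Benjamini-Hochberg adjustment over all genes kept. The model was tested on simulated data. Single genes were also permuted (100000 resamples), without sex, cohort or RIN and without adjustment over genes. The members, lists and the rule for named genes (all members, overlapping genes, called genes and the 2 largest changes of each list, and the 3 most alike genes) were chosen with earlier results of these data known. The fit relative to mature genes was added later. Alternatives were other covariates, scalings, filters, single cohorts or sexes, and leaving out each mouse. 1 called gene of the mature list is not reported here by name.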

Additional observations from a re-analysis of the deposited data

Results flagged for a closer look

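The lowest KO brain for Bcas1 stood apart from the other KO brains, at 8.56 against 8.80 for the next lowest. It is a male of cohort 1, KO replicate 3. The gap was 0.496 of the range, above Dixon's 95% value of 0.466 for 10 samples. Of 33 groups examined this was the one past the limit, and chance passes about 1 in 20. Without this brain the KO minus WT difference of Bcas1 was 0.06 (adjusted p = 0.654), still not called.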

How the results depend on the processing

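Enpp6 fell in KO brains under all 14 alternatives and was called in 11. It was not called in cohort 2, females or males alone. It was called in all 30 fits that left out a single mouse (-0.45 to -0.40), and its slope in 10 of 13 alternatives and in all 30 such fits. Genes called in KO against WT, 237 in the main analysis, were 144 with genotype alone, 114 with only the 2 genotypes fitted, 482 in cohort 1, 4 in cohort 2, 13 in females, 15 in males, and 138 (without WT replicate 4) to 388 (without KO replicate 10) with a mouse left out. In HET against WT the count of 1 became 4 with genotype alone, 3 without RIN, 2 with a pseudocount of 1, and 1 to 3 with a mouse left out. In KO against HET the count of 28 became 43 with array weights, 12 in cohort 1, 1 in cohort 2, 3 in females, 2 in males, and 24 to 44 with a mouse left out. For the slope the count of 241 became 142 with genotype alone, 437 in cohort 1, 4 in cohort 2, 12 in females, 26 in males, and 139 to 384 with a mouse left out. The cause of these shifts was not tested. The precursor minus committed difference was 0.060 with Enpp6 and -0.0068 without. Pairs of members with an adjusted p under 0.05 rose from 0 to 4 when only genotype means were removed. Among the values of members, 84 uncalled ones changed sign, with shifts of at most 0.140 (log2). No paired analysis was possible because replicate numbers only name mice, in accession order. Unknown depth limits what can be said of single low values.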
